A study of Mus musculus with 10 samples.

Results

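The 10 genes described here are the clade A serpin (Serpina) genes that code for alpha-1 antitrypsin (Serpina1a, Serpina1b, Serpina1c, Serpina1d and Serpina1e), for relatives of alpha-1 antichymotrypsin (Serpina3k, Serpina3m and Serpina3n), for corticosteroid-binding globulin (Serpina6) and for the protein Z-dependent protease inhibitor (Serpina10). They were chosen by name from the 18055 genes listed in any library, with earlier results of these data known. Serpina6 was among them because its values were already known to be low with palmitate and not with linoleate. The values of Serpina6 are therefore given as a description, without a test, in every comparison of these groups. RNA was sequenced from primary hepatocytes of C57BL/6 mice, which were isolated by collagenase perfusion and kept on collagen, with 2 libraries for every condition. These 5 groups comprised Vehicle, PA (200 μM palmitate for 24 h), LA (12 μM linoleate for 24 h), PA+NTP and LA+NTP, in which cells received NTP 1 h before the free fatty acid (FFA). There was no group with NTP and no FFA, the dose of NTP is not in the labels and is not used here, and PA and LA were used at different concentrations, so the 2 FFAs are set side by side as these treatments and not at matched doses. Whether the 2 libraries of a group came from separate cultures or animals is not stated, so the p-values measure the spread between these libraries, which may be technical.

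Many serpins are secreted inhibitors that trap a protease when it cuts their exposed reactive center loop. The liver makes most of the serpins of blood plasma. Alpha-1 antitrypsin protects tissue from neutrophil elastase, and the mouse carries several copies of its gene, whose products differ in that loop. Corticosteroid-binding globulin has the serpin fold but inhibits no protease. It carries glucocorticoids in blood and releases them when its loop is cut.

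All 10 genes lie in a cluster of clade A genes on chromosome 12, from 103616675 to 104414334 on GRCm38.p6, with 28 genes and pseudogenes over 798 kb. Serpina10 (103616675 to 103631490) and Serpina6 (103646630 to 103657218) open it on the minus strand. The 5 Serpina1 genes follow over 229 kb on the same strand, in the order Serpina1b (103728156 to 103738189), Serpina1d (103763587 to 103773633), Serpina1a (103853295 to 103863619), Serpina1c (103894926 to 103904950) and Serpina1e (103946931 to 103956897). Serpina3k (104338486 to 104345739), Serpina3m (104387157 to 104394259) and Serpina3n (104406646 to 104414334) close it on the plus strand.

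How far the paralogs can be told apart depends on their sequence. The coding sequences of Serpina1a to Serpina1e, each of 1239 bases, were identical to each other at 96.3% to 98.5% of positions, and 86 of the 1239 alignment columns differed. The window of 60 coding bases with the most differences, 18 columns, lay in exon 5 of 5, in the part that codes for the reactive center loop. It is shown for each gene because it is the stretch that best separates the copies and the part of the protein that meets the protease. Capitals mark the columns in which the 5 genes are not all alike (GRCm38, minus strand).
Serpina1a, chr12:103853757-103853816: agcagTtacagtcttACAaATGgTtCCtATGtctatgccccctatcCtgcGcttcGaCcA
Serpina1b, chr12:103728324-103728383: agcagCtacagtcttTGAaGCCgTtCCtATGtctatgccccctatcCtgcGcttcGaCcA
Serpina1c, chr12:103895094-103895153: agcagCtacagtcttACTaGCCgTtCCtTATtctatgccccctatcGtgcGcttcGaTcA
Serpina1d, chr12:103763762-103763821: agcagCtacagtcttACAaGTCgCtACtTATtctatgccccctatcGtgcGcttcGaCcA
Serpina1e, chr12:103947100-103947159: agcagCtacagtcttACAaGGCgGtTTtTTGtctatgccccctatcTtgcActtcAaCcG

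Serpina3k and Serpina3m shared 92.6% of their aligned coding bases, Serpina3k and Serpina3n 83.8%, and Serpina3m and Serpina3n 85.2%. Their most different window of 60 bases, also in exon 5 and in the part that codes for the loop, had 26 differing columns (GRCm38, plus strand).
Serpina3k, chr12:104345267-104345326: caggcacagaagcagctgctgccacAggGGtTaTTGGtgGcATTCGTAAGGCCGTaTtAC
Serpina3m, chr12:104393767-104393826: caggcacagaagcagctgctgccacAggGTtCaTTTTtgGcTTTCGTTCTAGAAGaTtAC
Serpina3n, chr12:104413446-104413505: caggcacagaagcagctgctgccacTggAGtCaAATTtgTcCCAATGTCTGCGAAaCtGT

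A read that falls outside such windows can match several copies, and the authors' quantification with RSEM divides it between them. Of all 31-base stretches in a gene's transcripts, the part also found in other genes' transcripts was 82.2% for Serpina1c, 76.2% for Serpina1a, 64.7% for Serpina1d, 64.4% for Serpina1b and 56.4% for Serpina1e. It was 35.0% for Serpina3m, 24.2% for Serpina3k and 21.6% for Serpina3n, against 1.3% for Serpina10 and 0.0% for Serpina6. For stretches of 100 bases it was 18.2% for Serpina1e to 58.5% for Serpina1c. It was then 6.1% for Serpina3m, 4.9% for Serpina3k and 0.2% for Serpina3n. Serpina6 and Serpina10 were the members whose expected counts were whole numbers in all 10 libraries. The values of the Serpina1 genes and of the Serpina3 genes are thus uncertain between paralogs, and each group was also summed and tested as 1 feature. Serpina3f, which shared the most 31-base stretches with Serpina3n (5.9%), is not in the Serpina3 sum.

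The depth ranged from 13142588 expected counts in a PA library to 60046937 in an LA+NTP library. FPKM values (fragments counted per transcript length and library size) were used for levels, and edgeR's quasi-likelihood test on the counts for differences, with an adjusted p under 0.05 over all 14097 tested genes and a fold change of at least 1.5 for a call. All 10 members passed the filter on low counts. Of the hepatocyte markers, 9 of 10 were found. The other, transferrin, was searched as Tf and not by its mouse symbol Trf, so its level was not read. Among the 9 found, Alb ranged from 1929 to 2818 FPKM. Their sum lay between 3473 and 3640 FPKM in Vehicle, 2541 and 2756 FPKM in PA, 3022 and 3326 FPKM in PA+NTP, 3509 and 3539 FPKM in LA and 4070 and 4275 FPKM in LA+NTP, with Apoa1, Ttr, Fah and Hnf4a called lower in PA. The 8 macrophage markers, of which Cd68 made up most, summed to 208 to 208.1 FPKM in Vehicle, 201.9 to 237.8 FPKM in PA, 266.5 to 296.3 FPKM in PA+NTP, 125.8 to 130.5 FPKM in LA and 182.2 to 196.3 FPKM in LA+NTP. Marco, at 0.42 to 4.59 FPKM, was called higher in PA (log2 fold change 2.46), Cd5l lower in PA (-1.11) and Cd68 lower in LA (-0.67), and the Kupffer cell marker Clec4f stayed at 0.29 FPKM or less. The 6 stellate markers summed to 17.74 to 18.25 FPKM in Vehicle and 15.8 to 17.03 FPKM in PA, with Lrat, Pdgfrb, Reln and Col1a1 called lower in PA and Col1a1 also in LA. The 6 endothelial markers summed to 38.22 to 38.26 FPKM in Vehicle, 28.29 to 29.56 FPKM in PA and 29.42 to 32.37 FPKM in LA. The 5 cholangiocyte markers, mostly Spp1, summed to 583.4 to 616.1 FPKM in Vehicle, 406.5 to 528.7 FPKM in PA and 637.2 to 677.5 FPKM in LA, with Krt7 at 0.13 FPKM or less and Krt19 called lower in PA (-1.22). The 4 of 7 blood leukocyte markers found summed to 0.4 to 0.79 FPKM, with Ptprc called higher in PA (0.69). The part of these markers in the results was not tested, and in bulk RNA fewer cells of a type and less RNA per cell cannot be told apart. Gene expression also followed the GC content of the genes differently in the groups. The rank correlation across genes of each library's deviation with GC content was -0.487 to -0.485 in PA, -0.576 to -0.572 in LA and 0.348 to 0.575 in the other 6 libraries. The members had a GC content of 48.4% to 52.5%, near the median of 50.6% over the tested genes, and the calls on members given below were also made after this trend was removed, in the comparisons of each FFA with Vehicle and of NTP with each FFA.

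Alpha-1 antitrypsin transcripts were among the abundant transcripts of these cells and fell with palmitate but not measurably with linoleate. Serpina1b, the highest member, was at 1245.83 and 1150.29 FPKM in the Vehicle libraries and ranked 59 of 18055 genes. It was at 615.03 and 633.78 FPKM in PA and at 1270.56 and 1180.81 FPKM in LA. The PA libraries lay below all others, and the LA libraries overlapped with Vehicle. With NTP it was at 888.83 and 809.39 FPKM in PA+NTP and at 1522.24 and 1489.17 FPKM in LA+NTP, so both PA+NTP libraries lay between PA and Vehicle and both LA+NTP libraries above all others. The log2 fold change in PA against Vehicle was -0.91 ± 0.06 (SE, n = 2 libraries a group, edgeR adjusted p = 2.91e-07).

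Serpina1c was also lowest in PA and highest in LA+NTP. It was at 841.54 and 801.78 FPKM in Vehicle, 437.44 and 369.93 FPKM in PA, 623.80 and 513.49 FPKM in PA+NTP, 779.69 and 691.34 FPKM in LA and 1059.83 and 952.66 FPKM in LA+NTP. No library of PA, PA+NTP, LA, Vehicle or LA+NTP overlapped with the next group in that order, although the difference between LA and Vehicle was not called. PA was lower than Vehicle by a log2 fold change of -0.99 ± 0.10 (edgeR adjusted p = 3.5e-06), or 1.99-fold. Serpina1a, with 206.98 and 186.33 FPKM in Vehicle and 115.55 and 116.87 FPKM in PA, was lower by -0.73 ± 0.08 on the log2 scale (edgeR adjusted p = 1.1e-05). Its levels were 153.25 and 130.37 FPKM in PA+NTP, 203.28 and 180.48 FPKM in LA and 260.67 and 238.54 FPKM in LA+NTP.

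The other 2 copies were not called, and whether they differed from the first 3 in their response was not tested. Serpina1d was at 140.64 and 127.11 FPKM in Vehicle and at 104.84 and 98.04 FPKM in PA, a log2 fold change of -0.37 ± 0.07 (edgeR adjusted p = 0.000476) that stayed under the 1.5-fold limit. It was at 127.77 and 116.70 FPKM in PA+NTP, 141.32 and 140.47 FPKM in LA and 145.39 and 150.57 FPKM in LA+NTP. Serpina1e was at 188.16 and 162.51 FPKM in Vehicle, 189.66 and 134.11 FPKM in PA, 188.14 and 140.03 FPKM in PA+NTP, 176.33 and 179.37 FPKM in LA and 177.43 and 170.41 FPKM in LA+NTP. Its groups overlapped throughout, and its log2 fold change in PA was -0.09 ± 0.14 (edgeR adjusted p = 0.638), with -0.36 to 0.15 when a library was left out.

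**Figure D1:**
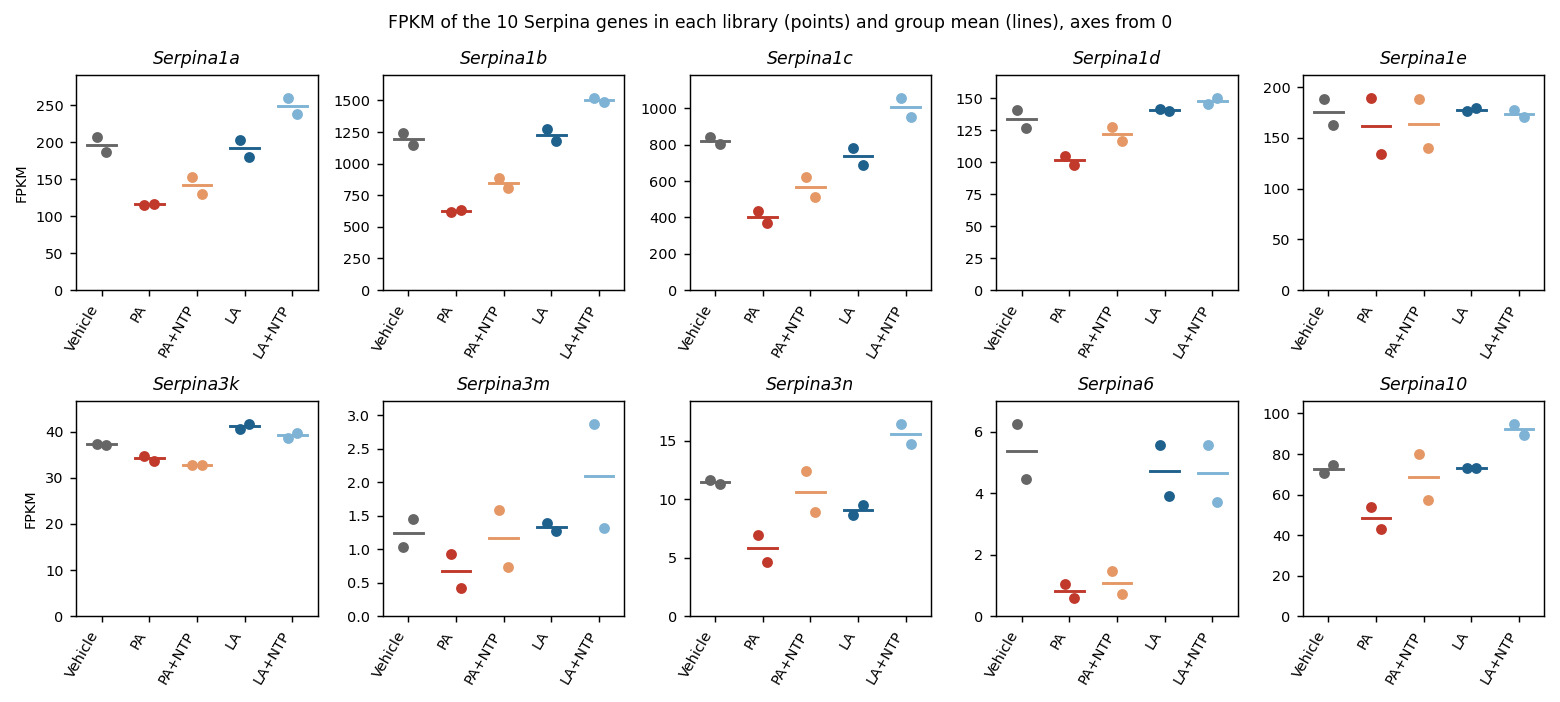
FPKM (vertical axes, from 0) of the 10 Serpina genes in the 5 groups; points are the 2 libraries of a group and lines their mean. Serpina1a, Serpina1b and Serpina1c had their lowest points in PA and their highest in LA+NTP, Serpina1e overlapped in all groups, and Serpina6 was at 0.60 to 1.46 FPKM in the 4 libraries with palmitate and at 3.73 to 6.26 FPKM in the other 6.

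Summed over the 5 copies, alpha-1 antitrypsin transcripts came to 2526 ± 138 FPKM in Vehicle, 1408 ± 77.6 FPKM in PA, 1846 ± 192 FPKM in PA+NTP, 2472 ± 141 FPKM in LA and 3083 ± 116 FPKM in LA+NTP (mean ± SD, n = 2). The sum was called lower in PA than in Vehicle (log2 fold change -0.81 ± 0.08, edgeR adjusted p = 2.5e-06), and this value does not depend on how reads were divided between the copies. The sum did not pass the test in LA against Vehicle (0.03 ± 0.08, edgeR adjusted p = 0.822). The make-up of the sum also differed in the deposited estimates. Serpina1b made up 47.4% ± 0.08 of it in Vehicle and 44.5% ± 3.39 in PA, whereas Serpina1e made up 6.93% ± 0.34 and 11.4% ± 2.16. The ratio of Serpina1a, Serpina1b and Serpina1c together to Serpina1d and Serpina1e together was 6.98 and 7.38 in Vehicle, 3.97 and 4.83 in PA, 5.27 and 5.66 in PA+NTP, 7.09 and 6.42 in LA and 8.81 and 8.35 in LA+NTP. The 2 PA libraries had the lowest ratios and the 2 LA+NTP libraries the highest. This split of the copies was made after their values were seen, and with 2 libraries against 2 an exact permutation test cannot go below a two-sided p of 0.333, so it was not tested.

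**Figure D2:**
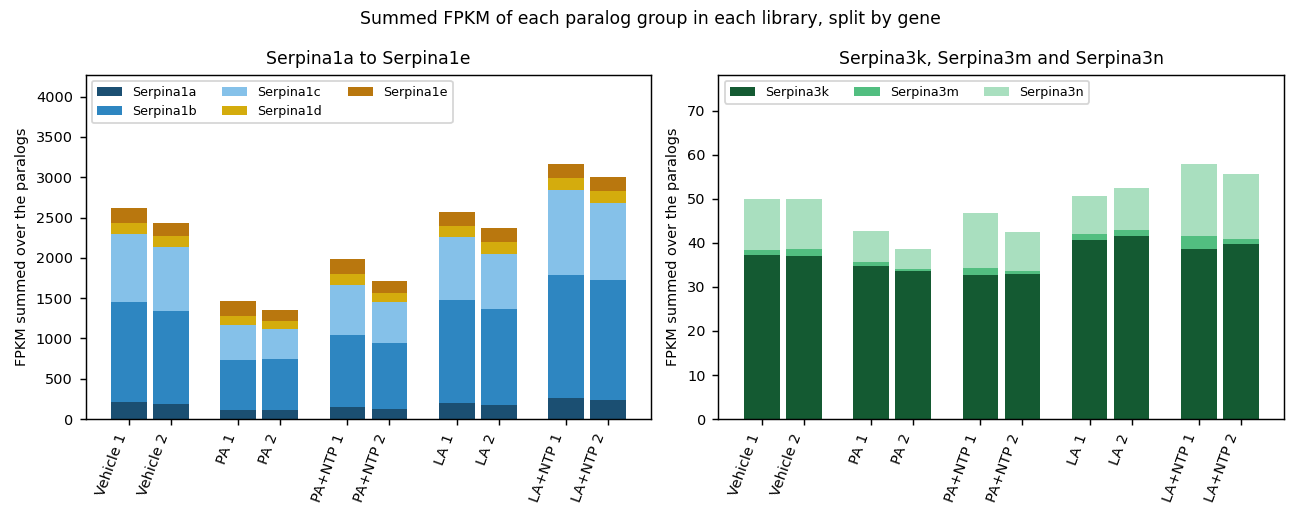
FPKM summed over the Serpina1 copies (left) and over Serpina3k, Serpina3m and Serpina3n (right) in each of the 10 libraries, with colors for the genes. The Serpina1 sum was 1353 to 1463 FPKM in PA and 2428 to 2623 FPKM in Vehicle, and the Serpina3 sum was made up mainly of Serpina3k in every library.

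RefSeq (GRCm38.p6) promoter windows of 250 bases before and 50 bases after the start matched 6 of the 10 members, the Serpina1 genes and Serpina3n. Over the 250 bases before the start, the 5 Serpina1 copies were identical to each other at 92.1% to 98.0% of aligned positions. TTCCNGGAA, a sequence bound by STAT factors and searched on both strands, was in none of the 6 promoters and in 1.1% of 27025 mouse promoters of that length, which describes letters and not binding.

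Of the relatives of alpha-1 antichymotrypsin, Serpina3n was called in PA and Serpina3k and Serpina3m were not. Serpina3n, an acute-phase inhibitor of serine proteases, was at 11.67 and 11.33 FPKM in Vehicle, 6.96 and 4.68 FPKM in PA, 12.40 and 8.87 FPKM in PA+NTP, 8.65 and 9.48 FPKM in LA and 16.43 and 14.70 FPKM in LA+NTP. Its PA libraries were the lowest of all and its LA+NTP libraries the highest. It was called lower in PA than in Vehicle by a log2 fold change of -1.02 ± 0.17 (edgeR adjusted p = 0.000244), with -1.26 without PA replicate 1 or -0.68 without PA replicate 2 as the ends of the range over left-out libraries. Serpina3k, a kallikrein-binding protein, had the narrowest range of the 10 members over the libraries relative to its level, with 37.31 and 37.13 FPKM in Vehicle, 34.80 and 33.55 FPKM in PA, 32.76 and 32.83 FPKM in PA+NTP, 40.60 and 41.65 FPKM in LA and 38.65 and 39.67 FPKM in LA+NTP. Serpina3m was at 0.42 to 2.87 FPKM over the 10 libraries, with overlapping groups, and its log2 fold change of -1.07 ± 0.50 in PA did not pass the test (edgeR adjusted p = 0.1), although it was called in 4 of 22 settings, among them without a filter on low counts and in a fit of PA and Vehicle alone. The Serpina3 sum was 49.96 ± 0.07 FPKM in Vehicle and 40.67 ± 2.86 FPKM in PA, a log2 fold change of -0.30 ± 0.07 that was under the fold limit (edgeR adjusted p = 0.00346).

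Serpina10, whose protein inhibits factor Xa with protein Z as its cofactor, was at 70.71 and 74.76 FPKM in Vehicle, 53.67 and 43.13 FPKM in PA, 79.77 and 57.38 FPKM in PA+NTP, 72.95 and 73.17 FPKM in LA and 94.83 and 89.53 FPKM in LA+NTP. PA lay below Vehicle in both libraries, and PA+NTP overlapped with Vehicle. The log2 fold change in PA was -0.57 ± 0.12 (edgeR adjusted p = 0.00158), just under the limit of 1.5-fold. It was called in 10 of 22 settings, among them without PA replicate 1 (-0.73) and without Vehicle replicate 1 (-0.61).

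Serpina6 had the largest fitted difference between PA and Vehicle among the 10 members, which is what it was chosen for. It was at 6.26 and 4.48 FPKM in Vehicle, 1.05 and 0.60 FPKM in PA, 1.46 and 0.73 FPKM in PA+NTP, 5.56 and 3.92 FPKM in LA and 5.59 and 3.73 FPKM in LA+NTP. The 4 libraries with palmitate, with or without NTP, lay below the other 6 without overlap, while PA overlapped with PA+NTP and the groups without palmitate overlapped with each other. The counts behind these values were few, 171 and 175 in Vehicle, 20 and 34 in PA, 65 and 34 in PA+NTP, 261 and 135 in LA and 292 and 325 in LA+NTP. With counts pooled over the 2 libraries of a group and scaled for depth, Vehicle was 7.16-fold above PA. The log2 fold change, as a description, was -2.81 ± 0.37 in PA and -0.11 ± 0.29 in LA against Vehicle. By the pooled counts PA+NTP was 1.47-fold above PA, with a fitted log2 fold change of 0.50 ± 0.41. Vehicle was still 4.87-fold above PA+NTP. LA+NTP was 0.884 times the level of LA. Between the 2 groups with NTP it was lower with palmitate by -2.11 ± 0.32 on the log2 scale, again as a description, with -2.65 to -1.44 over the alternatives.

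The genes whose log2 CPM, the counts scaled to library size, were most like those of Serpina6 over the 10 libraries were Serpind1 (heparin cofactor II, Pearson r = 0.98), Gstz1 (maleylacetoacetate isomerase, 0.977), C8b (a chain of complement component C8, 0.975), Ahsg (fetuin-A, 0.972) and Adh1 (alcohol dehydrogenase, 0.97). These are descriptions over points that share libraries and groups. Serpind1 was at a mean of 52.13 FPKM in Vehicle, 25.56 in PA, 25.54 in PA+NTP, 55.26 in LA and 52.58 in LA+NTP, and Adh1 at 109.42, 42.32, 39.93, 109.69 and 130.11 FPKM in the same order. Among the members, the correlation with Serpina6 was highest for Serpina1c (0.918), Serpina1a (0.915) and Serpina1b (0.913) and lowest for Serpina1e (0.589).

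The comparison of PA with Vehicle asked which members respond to a saturated FFA. Of the 9 members with a test, 4 were called lower (Serpina1a, Serpina1b, Serpina1c and Serpina3n) and none higher, where 8.92% of all tested genes were called lower and 6.00% higher. Because the members were chosen with earlier results of these data known, the counts and shares are set side by side as a description. All 9 had a negative log2 fold change, with a median of -0.73 against -0.01 over all tested genes, but the Serpina1 copies share reads and are not independent of each other. In LA against Vehicle, 0 of 9 members were called, where 7.11% of the genes were called lower and 3.53% higher, or 10.6% in either direction. At an unadjusted p under 0.05, 1 member and 6872 of the 14097 genes passed in LA. The member was Serpina3k (log2 fold change 0.19 ± 0.06, edgeR adjusted p = 0.0256), which was under the fold limit, and DESeq2 called 0 of the 9. The member values in LA were 0.08 ± 0.06 for Serpina1b, -0.11 ± 0.10 for Serpina1c, 0.01 ± 0.08 for Serpina1a and -0.30 ± 0.16 for Serpina3n. Compared directly, 5 of 9 members were called lower in PA than in LA, where 2.04% of all genes were. These were Serpina1a (-0.74 ± 0.08), Serpina1b (-0.99 ± 0.06), Serpina1c (-0.88 ± 0.10), Serpina3n (-0.72 ± 0.17) and Serpina10 (-0.62 ± 0.12). The calls on Serpina3n and Serpina10 were lost without PA replicate 2 (-0.39 and -0.46), and that on Serpina3n also without LA replicate 1 (-0.79) or LA replicate 2 (-0.66). The Serpina1 sum was lower in PA than in LA by -0.83 ± 0.08 (edgeR adjusted p = 1.79e-05).

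**Figure D3:**
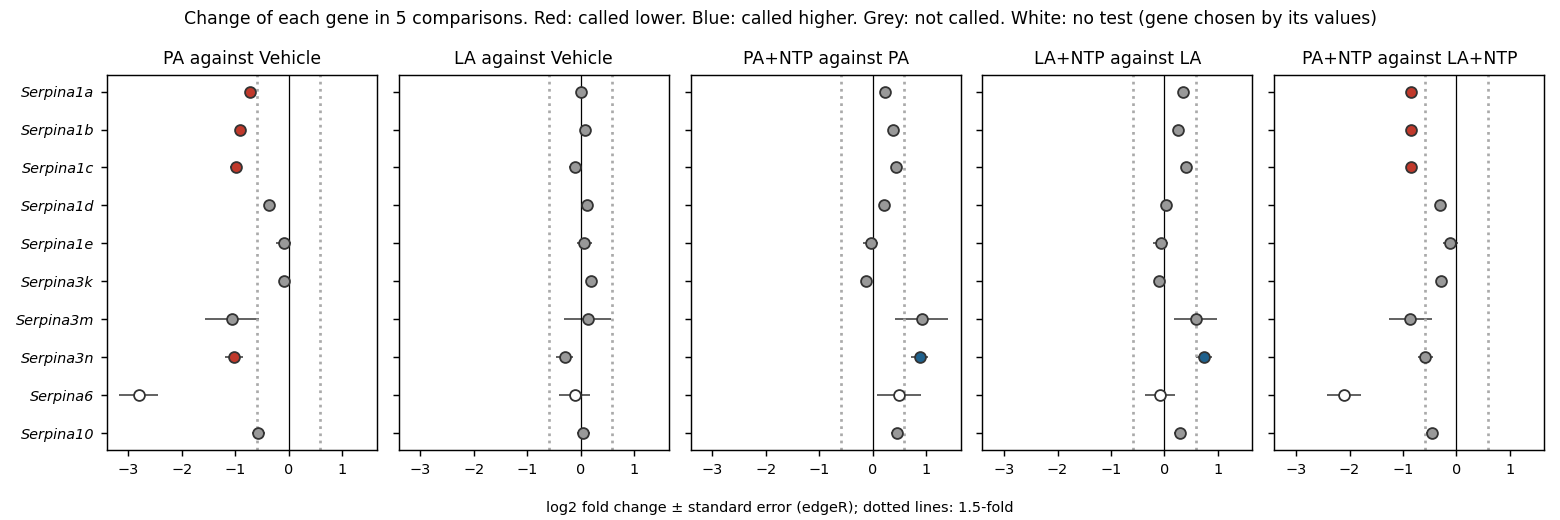
Log2 fold change of each gene (horizontal axes, error bars are standard errors, smaller than the point where not visible) in 5 comparisons, with dotted lines at 1.5-fold. Serpina1a, Serpina1b, Serpina1c and Serpina3n were lower in PA (red), no gene was called in LA, Serpina3n was higher with NTP and either FFA (blue), and white circles for Serpina6 carry no test.

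The comparisons of NTP with an FFA against that FFA asked what the pretreatment changed. Serpina3n was the 1 member called in each of them. It was higher in PA+NTP than in PA by a log2 fold change of 0.88 ± 0.17 (edgeR adjusted p = 0.000685) and higher in LA+NTP than in LA by 0.74 ± 0.15 (edgeR adjusted p = 0.000862). The first call was lost without PA replicate 2, with a value of 0.54, and without PA+NTP replicate 2 the count rose to 3 members. Of all tested genes, 8.74% were called higher when NTP preceded PA and 11.7% when it preceded LA, so that 1 of 9 members was near those shares. Under the fold limit but past the adjusted p in PA+NTP were Serpina1b (0.38 ± 0.06), Serpina1c (0.44 ± 0.10), Serpina1a (0.23 ± 0.08), Serpina1d (0.21 ± 0.07) and Serpina10 (0.46 ± 0.12). In LA+NTP these were Serpina1b (0.26 ± 0.06), Serpina1c (0.41 ± 0.10), Serpina1a (0.34 ± 0.08) and Serpina10 (0.29 ± 0.12). The Serpina1 sum was higher by 0.33 ± 0.08 with NTP in PA (edgeR adjusted p = 0.00278) and by 0.26 ± 0.08 in LA (edgeR adjusted p = 0.0091), both under 1.5-fold. The Serpina3 sum, which holds Serpina3n, did not pass the test with NTP in PA (0.11 ± 0.07, edgeR adjusted p = 0.22). Nor did it in LA (0.12 ± 0.07, edgeR adjusted p = 0.161). Serpina3k, the main part of that sum, was at -0.11 ± 0.06 in both, and Serpina3m at 0.92 ± 0.49 in PA and 0.58 ± 0.40 in LA. The difference between the effects of NTP with PA and with LA was called for 0 of the 9 members and for 0% of all tested genes, while DESeq2 also called 0 of the 9. No member, and 1029 of the 14097 genes, had an unadjusted p under 0.05 for this difference. The member values of the difference ranged from -0.11 ± 0.12 for Serpina1a to 0.34 ± 0.64 for Serpina3m.

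Against Vehicle, 0 of 9 members were called in PA+NTP, where 1.64% of all genes were called lower. By unadjusted p under 0.05, 5 members and 3476 of the 14097 genes passed, and DESeq2 called 0 members. Serpina1a (-0.50 ± 0.08), Serpina1b (-0.52 ± 0.06) and Serpina1c (-0.56 ± 0.10) were past the adjusted p and just under the fold limit, and their calls depended on the libraries. Serpina1c was called without Vehicle replicate 2 (-0.59), and Serpina1c (-0.68) and Serpina1a (-0.59) without PA+NTP replicate 1. In LA+NTP against Vehicle 0 of 9 members were called, where 0.0922% of all genes were in either direction. At an unadjusted p under 0.05, 6 members and 2014 of the 14097 genes passed, and DESeq2 called 0 members. The value of Serpina1b was 0.33 ± 0.06 (edgeR adjusted p = 0.0474). In PA+NTP against LA+NTP, 3 of the 9 members other than Serpina6 were called lower, where 2.45% of all genes were. These were Serpina1a (-0.85 ± 0.08), Serpina1b (-0.86 ± 0.06) and Serpina1c (-0.85 ± 0.10), and the Serpina1 sum was lower by -0.77 ± 0.08 (edgeR adjusted p = 2.21e-05). PA against LA and PA+NTP against LA+NTP share no library. Comparisons that share the Vehicle, PA or LA libraries are not independent of each other.

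The other clade A serpins were read from the same fit, 10 of 15 listed genes being tested. In PA against Vehicle 4 were called lower and 1 higher, with a median log2 fold change of -1.05, where 8.92% of all genes were called lower and 6.00% higher. In LA 2 were called lower and 1 higher, with a median of -0.42, where 7.11% of all genes were called lower and 3.53% higher. Serpina3j (-3.23 ± 0.54) and Serpina3a (-2.62 ± 0.68) were lower but expressed at under 1 FPKM, with 5.29 and 7.66 expected counts in PA. Serpina7, which codes for thyroxine-binding globulin, another serpin that carries a hormone, was at 150.67 and 144.44 FPKM in Vehicle, 298.82 and 269.74 FPKM in PA, 215.20 and 162.01 FPKM in PA+NTP, 244.09 and 220.43 FPKM in LA and 150.90 and 138.75 FPKM in LA+NTP. It was called higher in PA (0.98 ± 0.10) and in LA (0.70 ± 0.10), and lower with NTP in PA (-0.65 ± 0.10) and in LA (-0.72 ± 0.10). Its GC content was 39.5%, and with the GC trend removed those values were 0.57, 0.26, -0.25 and -0.20 and none was called.

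**Figure D4:**
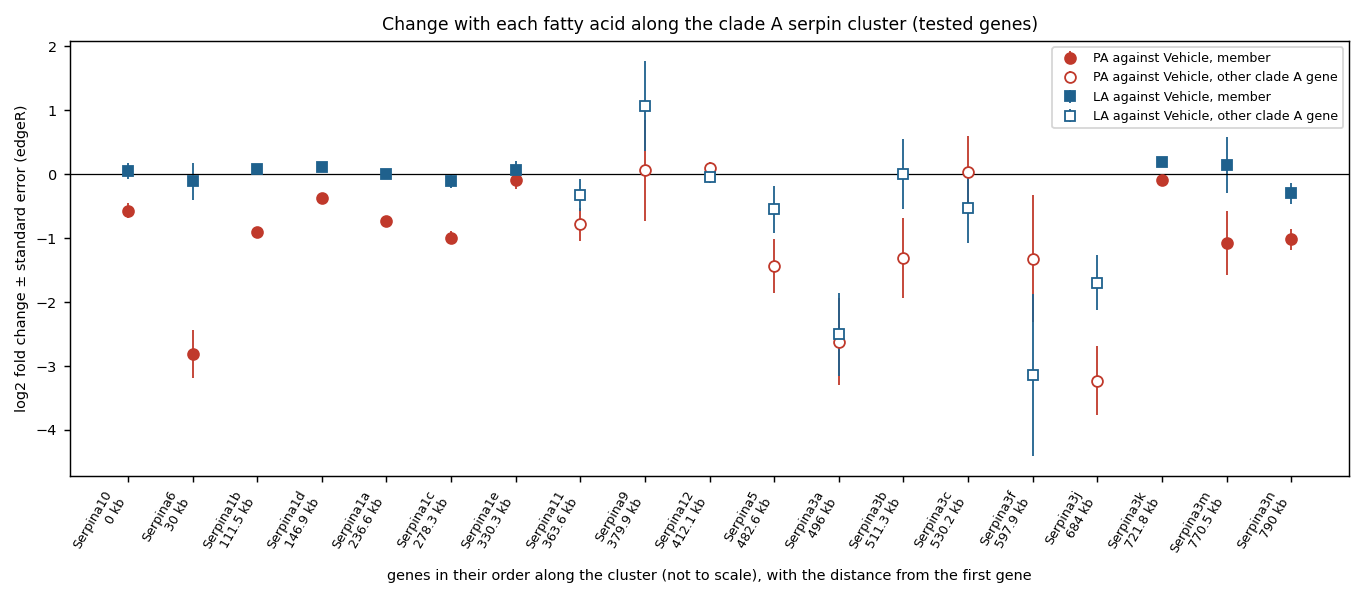
Log2 fold change ± SE (vertical axis) in PA (red circles) and LA (blue squares) against Vehicle for the 19 tested clade A genes of chromosome 12 in their order along the cluster, with distances from its first gene in kb; filled symbols are the 10 genes described here. Serpina6 stood at -2.81 in PA and -0.11 in LA, next to Serpina10 at -0.57 and 0.05, and Serpina3a was low with both FFAs at -2.62 and -2.50.

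Among the 8 tested genes of a list of other secreted serpins, 4 were called lower in PA, where 8.92% of all genes were. In LA 0 were called, where 7.11% of all genes were called lower, and the medians were -0.64 in PA and -0.18 in LA. The 4 called in PA were Agt (angiotensinogen, -0.97 ± 0.11), Serpinf2 (alpha-2 antiplasmin, -1.18 ± 0.14), Serpinc1 (antithrombin, -0.90 ± 0.13) and Serpind1 (-1.01). Antithrombin was at a mean of 40.5 FPKM in Vehicle, 21.5 in PA, 26.1 in PA+NTP, 38.3 in LA and 48.9 in LA+NTP. Of 9 tested proteases and cofactors that serpins act on or with, 3 were called lower in PA and 0 in LA, with medians of -0.29 and 0.01. The shares of all genes called lower were 8.92% in PA and 7.11% in LA. Proz, the protein Z cofactor of Serpina10, was lower by -1.43 ± 0.23, Plg (plasminogen) by -0.75 ± 0.23 and Klkb1 (plasma kallikrein) by -0.91 ± 0.34. The call on Klkb1 was made in 13 of 22 settings.

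Genes for the folding, export and disposal of alpha-1 antitrypsin gave 2 calls lower and 1 higher of 11 in PA and 2 lower in LA, with medians of 0.23 and 0.12. Over all genes, 8.92% were called lower and 6.00% higher in PA, and 7.11% lower in LA. Canx, the chaperone calnexin, was higher in PA (0.64 ± 0.06), from 150 to 229 FPKM, and Syvn1, a ubiquitin ligase of the endoplasmic reticulum, was lower in PA (-0.81 ± 0.08) and in LA (-0.93 ± 0.08). Lrp1, a receptor that clears serpin and protease complexes, was lower in PA (-0.93 ± 0.06) and in LA (-0.62 ± 0.06). With the GC trend removed the values of Canx (0.36), of Syvn1 in PA (-0.49) and in LA (-0.58) and of Lrp1 in PA (-0.58) and in LA (-0.26) all fell under the fold limit.

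In the glucocorticoid axis, 3 of 14 genes were called lower in PA, where 8.92% of all genes were, and 1 of 14 in LA, which is near the share of 7.11% over all genes. The medians of the list were -0.19 in PA and -0.03 in LA. The glucocorticoid-responsive genes Per1 (-1.03 ± 0.12), Zbtb16 (-0.69 ± 0.08) and Dusp1 (-0.64 ± 0.14) were lower in PA, and Per1 also in LA (-1.23 ± 0.12). Without the GC trend Per1 remained called at -0.61 in PA and -0.79 in LA, whereas Zbtb16 (-0.42) and Dusp1 (-0.50) were not called. Among the hepatic transcription factors, Hnf4a was lower in PA (-0.73 ± 0.06), as was Foxa3 (-0.83 ± 0.10). With the GC trend removed Hnf4a was not called (-0.45), while Foxa3 remained called at -0.62. Of 15 acute-phase proteins, 1 was called higher in PA, near the share of 6.00% over all genes, and 0 were called in LA, with medians of 0.07 and 0.11. The gene called was Apcs (serum amyloid P component), higher by 1.75 ± 0.23.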

How the data were processed

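RNA was sequenced in 10 libraries of primary mouse hepatocytes, 2 in each of 5 groups taken from the sample labels. According to the study's methods, reads were aligned with HISAT and Bowtie2 and quantified with RSEM, and the submitters' processing notes name mm10. The authors deposited, for each gene and library, RSEM's expected count, without normalization between libraries, and an FPKM scaled for gene length and library size. The lowest FPKM listed was 0.01, and a gene missing from a library's table was set to 0. Of 18055 gene IDs, 17998 were matched to symbols by ID in RefSeq (GRCm38.p6) and 11 through an accession.

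Expected counts were rounded and fitted with edgeR 4.0.16 in R 4.3.3 over all 10 libraries (TMM, filterByExpr, quasi-likelihood F test), which left 14097 genes for the test and removed 3958. A call needed an adjusted p (Benjamini-Hochberg, over all tested genes) under 0.05 with a 1.5-fold or larger change. Symbols with ± are standard deviations for levels and standard errors for fold changes. These standard errors were derived from the test, as the size of the log2 fold change divided by the square root of F. The paralog counts were also summed and refitted. The same results were recomputed with DESeq2 1.42.0, scaling by library size alone, no filter, a filter at a mean FPKM of at least 1, no fold threshold, the NOISeq rule of the study written from its published definition (probability 0.95), limma 3.58.1 on log2(FPKM + 1) and log2(FPKM + 0.1), separate fits of the groups in a comparison, a replicate block, a correction for the GC trend (loess, span 0.4) and each library left out in turn. Scripts were tested on simulated data.

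The members and lists were chosen with earlier results of these data known. All 10 members are named, and from the other lists at most 3 called genes with the smallest adjusted p in PA or LA against Vehicle. A gene of the transcription factor list, and with it that list's counts, is not reported here. Serpind1 is named among the most alike genes, and beside its list because it was called there. Coding sequences and shared 31-base and 100-base sequences came from GENCODE M21 (GRCm38) and promoters from RefSeq.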

Additional observations from a re-analysis of the deposited data

How the results depend on the processing

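No called value changed its sign under the alternatives, whereas values that were not called, such as that of Serpina1e, did. The NOISeq rule at a probability of 0.95 called 0 members in PA against Vehicle, PA+NTP against PA, LA+NTP against LA, PA against LA and PA+NTP against LA+NTP, and 0 of the summed groups in PA against Vehicle, PA against LA and PA+NTP against LA+NTP; over all genes it called 1 gene lower and 5 higher in PA against Vehicle. It cannot be computed for the difference of the NTP effects. The study reported far more genes changed by palmitate than this version of the rule called, so the calls of this version do not stand for those of the study. Without the fold threshold, members called were 1 in LA against Vehicle, 6 in PA+NTP against PA, 5 in LA+NTP against LA, 3 in PA+NTP against Vehicle, 1 in LA+NTP against Vehicle and 8 in PA+NTP against LA+NTP (Serpina6 included), and summed groups called were 2 in PA against Vehicle, 1 in PA+NTP against PA, 1 in LA+NTP against LA, 1 in PA+NTP against Vehicle, 2 in PA against LA and 2 in PA+NTP against LA+NTP. Without a filter on low counts, 2 members were called in PA+NTP against PA. With the paralogs summed, 0 were called in PA+NTP against PA and 0 in LA+NTP against LA. With a library left out, 0 to 3 members were called in PA+NTP against PA, 0 to 2 in PA+NTP against Vehicle and 3 to 5 in PA against LA.

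Over all genes, the deviations of libraries with the same replicate number correlated at -0.07 to 0.13 between groups, so the numbers were not taken to pair them. Among the members, replicate 1 had the higher FPKM in 5 of 5 groups for Serpina6 and Serpina1c and in 4 of 5 for Serpina1a, Serpina1b, Serpina1d, Serpina1e, Serpina3m and Serpina3n. With the replicate block, members called were 5 in PA against Vehicle (Serpina3m added), 0 in LA against Vehicle and 1 each in PA+NTP against PA and LA+NTP against LA, and Serpina3n was added in PA+NTP against LA+NTP. For the member values past the adjusted p in the edgeR fit of all 10 libraries, counted once for each alternative, a call was lost 22 times and gained 41 times. Calls that Serpina3m gained are not in this count, because it was not past the adjusted p in that fit. The count includes calls gained by dropping the fold threshold, which were fixed in advance. It also includes calls lost under the NOISeq rule, which called no member. Serpina6 in PA+NTP against LA+NTP is in the count too, without being read as a result. The count is therefore no measure of how stable the calls are. With 2 libraries a group, the few counts of Serpina6 and Serpina3m and the shared sequence of the paralogs limit what these values can show.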
